A study of Mus musculus with 59 samples.

Results

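AMPA receptors are glutamate-gated cation channels that carry most fast excitatory transmission in the cortex. Their pore is built from the subunits encoded by Gria1, Gria2, Gria3 and Gria4, and auxiliary proteins bound to the pore govern its export, synaptic anchoring and gating. The auxiliary proteins described here are the transmembrane AMPA receptor regulatory proteins (TARPs) Cacng2, Cacng3 and Cacng8, the cornichon homologs Cnih2 and Cnih3, and Shisa9. These 10 genes were taken by name from the 18088 genes of the deposited table, each name matched 1 gene identifier, and all 10 were among the 16599 genes tested. They were chosen by what they encode, with earlier results of these data known.

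RNA-seq libraries were made from the prefrontal cortex of 59 mice of the C57BL/6J strain, taken at postnatal day 25. HT mice carried 1 copy of a Shank3 knock-in allele and WT mice carried none. The labels do not name the mutation; column names of both genotypes in the deposited table begin with L68P, a term the labels do not explain. Shank3 is a scaffold protein of the postsynaptic density beneath these receptors. Pups of both genotypes were exposed through maternal milk from day 3 to day 24 to vehicle, to fluoxetine, an inhibitor of serotonin reuptake, or to lithium, a mood stabilizer. The 6 arms were WT vehicle, WT fluoxetine, WT lithium, HT vehicle, HT fluoxetine and HT lithium, each with 5 females and 5 males except WT lithium, which had 4 females. The labels give no dose, litter or dam, and every p-value below treats each pup as a separate replicate although littermates shared a dam's milk.

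Libraries held 22984556 to 35969254 reads, and the members' values are normalized counts, reads divided by the library's size factor. Markers of cortical excitatory neurons were abundant (Slc17a7 had a median of 50190 normalized counts), but olfactory bulb markers differed widely. An olfactory bulb index, the mean of 8 markers after each was divided by its average over the 59 libraries, ran from 0.107 to 4.18 with a median of 0.499, and Eomes, a marker of bulb projection neurons, ran from 0 to 1317 counts. By 2 set limits, 6 libraries are said below to stand apart. WT fluoxetine females 1, 2 and 4, HT lithium female 4 and HT vehicle male 4 had an index over 2.5, and HT lithium female 5 had 2.70% mitochondrial reads where 5% was the limit set. The limit of 2.5 did not fall at a gap. WT fluoxetine female 2 had 2.55, and HT fluoxetine male 5 (2.44), HT vehicle male 5 (2.43), WT lithium female 1 (2.41) and HT vehicle female 1 (2.41) lay just under it. In bulk tissue, fewer cells of a type and less RNA per cell cannot be told apart.

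The 4 pore subunits are paralogs. The 60 bases around the glutamine codon of the pore loop are shown because they let the paralogs be compared at the site where the Gria2 transcript is edited: in neurons, adenosine deamination of this codon in Gria2 RNA replaces glutamine with arginine and lowers the calcium permeability of the channel. The glutamine codon is in capitals, sequences are read from the GENCODE transcripts of GRCm38 in the direction of the gene, and each spans 2 exons, 11 and 12 of 16 in Gria1, Gria2 and Gria3, and 12 and 13 of 17 in Gria4.
Gria1: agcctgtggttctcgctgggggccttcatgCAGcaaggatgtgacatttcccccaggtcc
Gria2: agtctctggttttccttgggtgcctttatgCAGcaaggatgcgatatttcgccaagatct
Gria3: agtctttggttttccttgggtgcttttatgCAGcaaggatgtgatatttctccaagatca
Gria4: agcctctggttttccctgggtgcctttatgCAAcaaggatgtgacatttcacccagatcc

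The first 56 bases of each stretch lie at chr11:57243064-57243119 (Gria1, plus strand), chr3:80706888-80706943 (Gria2, minus strand), chrX:41610235-41610290 (Gria3, plus strand) and chr9:4464114-4464169 (Gria4, minus strand), and the last 4 bases lie in the next exon. Over the 60 bases Gria2 and Gria3 differed at 5 positions, Gria1 and Gria4 at 8, and Gria1 differed from Gria2 and from Gria3 at 13. Counts per gene carry no information on editing. Few stretches are shared exactly with other genes: of the windows of 31 bases in the longest transcript of each member, between 0% (Cacng3, Cacng8, Cnih2 and Shisa9) and 1.24% (Cacng2) also occurred in a transcript of another gene.

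In GRCm38, the pore subunit genes are Gria1 at chr11:57011387-57330244, Gria2 at chr3:80681450-80802835, Gria3 at chrX:41400854-41678601 and Gria4 at chr9:4417896-4796234. The TARP genes are Cacng2 at chr15:77991748-78120028, Cacng3 at chr7:122670492-122769393 and Cacng8 at chr7:3390683-3415648. The remaining genes are Cnih2 at chr19:5092868-5098521, Cnih3 at chr1:181352628-181460641 and Shisa9 at chr16:11984113-12270902.

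All 10 members were expressed well above the middle of the tested genes in WT vehicle mice. Levels between genes were compared as normalized counts per kilobase of the longest transcript, mean ± SD over 10 libraries. Cnih2, which promotes export of receptors from the endoplasmic reticulum and slows their closing, was highest at 3600 ± 428, above 97.7% of the tested genes with a known length. The pore subunits Gria2 (1900 ± 157), Gria1 (1865 ± 143) and Gria3 (1828 ± 108) followed and did not differ beyond their spread: Gria2 exceeded Gria1 in 46 of all 59 libraries and Gria1 exceeded Gria3 in 21. The TARP Cacng3 was next at 1502 ± 177 and Cnih3 at 1008 ± 82.7.

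A lower tier held Cacng8 (627 ± 105 per kilobase) and Gria4 (620 ± 45.0), which could not be ordered, since Cacng8 was the higher of the pair in 27 of 59 libraries. Shisa9, which speeds entry of receptors into desensitization, was at 499.5 ± 40.3, and Cacng2, known as stargazin and required for surface delivery of AMPA receptors in cerebellar granule cells, was lowest at 438 ± 42.5. Shisa9 exceeded Cacng2 in 33 of 59 libraries. Each of the other neighbours in the order kept it in 59 of 59 libraries. The order within the upper tier depends on the transcript length used: with the median length of a gene's annotated transcripts, Gria3 (3080) followed Cnih2 and was itself followed by Gria2 (2738) and Cnih3 (2071).

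**Figure D1:**
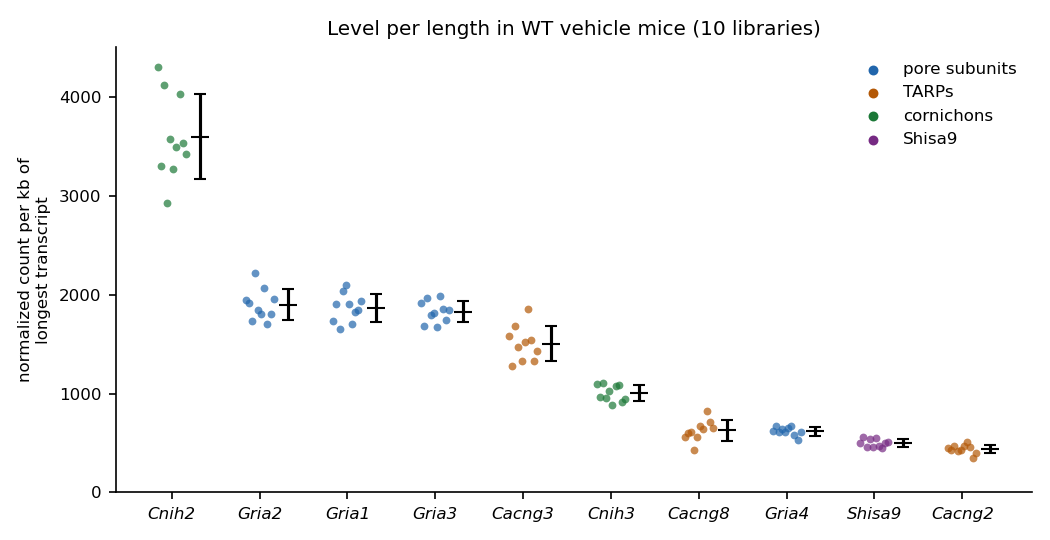
Level of the 10 members in WT vehicle mice, as normalized counts per kilobase of the longest transcript. Points are the 10 libraries, black bars are the mean ± SD, and colours give the role. Cnih2 is highest with a mean of 3600, Gria2, Gria1 and Gria3 overlap near 1900, and Cacng2 is lowest at 438.

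Within each family the members held different shares of the total. Of the summed pore subunit level per length over 59 libraries, Gria2 made up 31.3% ± 2.25 (SD), Gria1 29.5% ± 3.31, Gria3 29.3% ± 3.22 and Gria4 9.92% ± 1.08. Gria4 had the lowest share in each of the 6 arms, with arm means from 9.36% in HT fluoxetine to 10.4% in HT lithium mice. Among the TARPs, Cacng3 held 58.96% ± 3.51, Cacng8 23.1% ± 3.93 and Cacng2 18.0% ± 1.16. Cnih2 held 77.8% ± 1.33 of the cornichon total, and its arm means lay between 77.2% and 78.0%. The transcript length used moves some shares: with the median length of annotated transcripts, chosen after the data were seen, Cnih2 held 63.1% ± 1.78 and Cnih3 36.9% ± 1.78 against 22.2% ± 1.33 before, and Gria3 held the largest pore subunit share at 36.5% ± 3.56. These shares set by transcript length are a description of RNA and not of receptor composition.

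The arms differed little. The highest arm mean exceeded the lowest by 1.05-fold for Gria4 and 1.16-fold for Gria2. It was furthest from the lowest for Cacng8, with arm means from 1027 in HT vehicle to 1232 in HT lithium mice, and for Cacng2, from 2412 in WT vehicle to 2878 in HT lithium mice. The other members lay between 1.08- and 1.15-fold. Variation between libraries was as large: over all 59, the coefficient of variation ran from 9.13% for Gria1 to 19.4% for Cacng8. In the plot of counts by arm, no member separates any 2 arms that were compared.

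**Figure D2:**
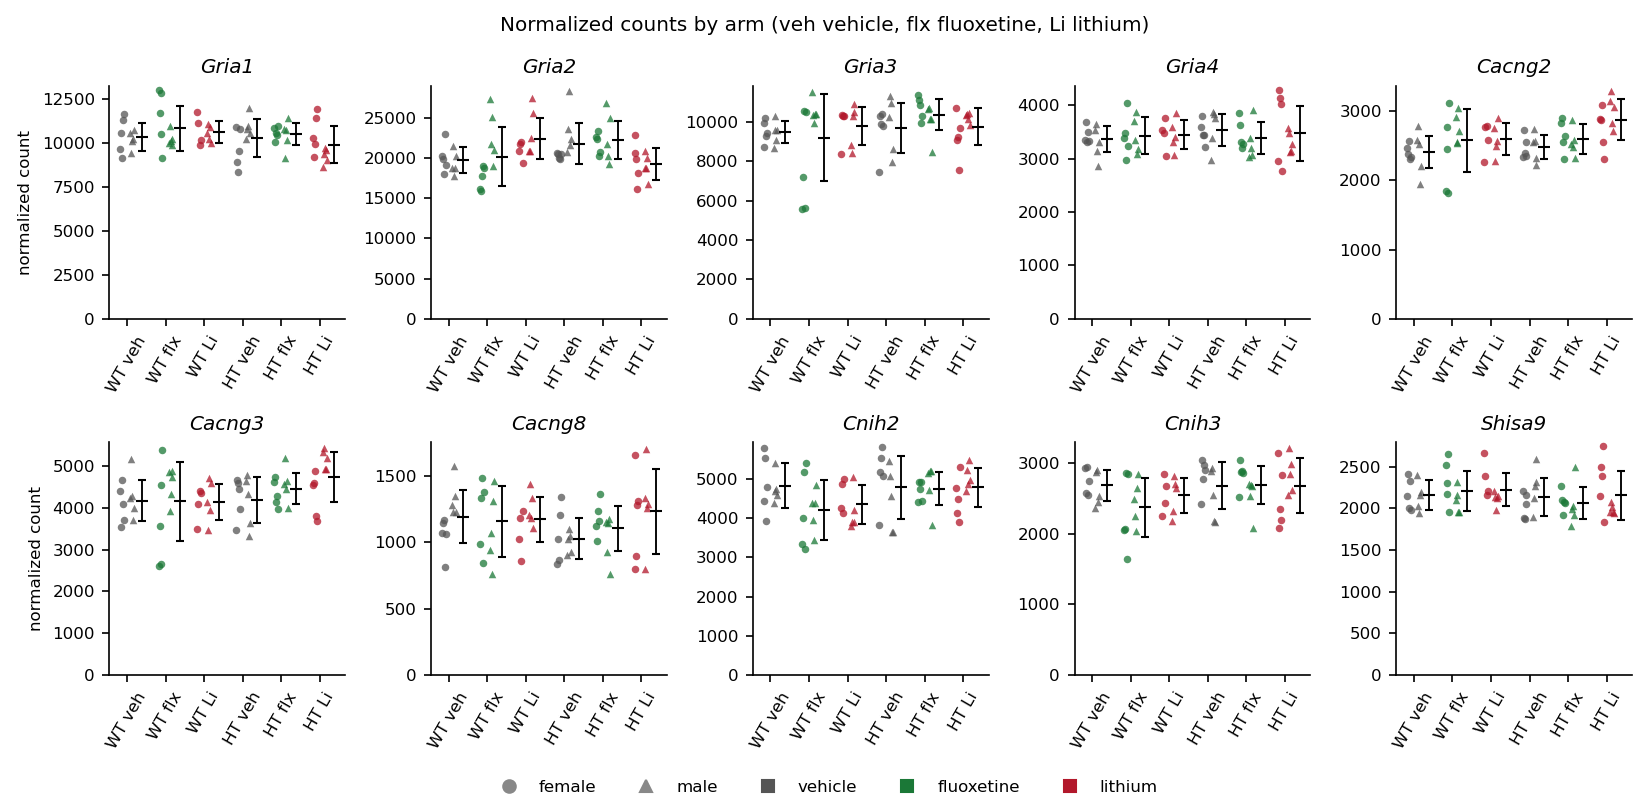
Normalized counts of each member in the 59 libraries by arm, with females as circles and males as triangles. Black bars are the mean ± SD over the 9 or 10 libraries of an arm, and every axis starts at 0. Cacng2 is highest and Gria2 lowest in HT lithium mice, and WT fluoxetine females 1 and 4 lie far below the rest for Gria3.

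Lithium in HT mice was the only comparison of arms in which members passed the threshold, an adjusted p of at most 0.05 (limma, Benjamini-Hochberg over all tested genes). Cacng2 rose and Gria2 fell, 2 of 10 members, where 20.3% of all 16599 genes passed, 10.9% higher and 9.43% lower. The share of members was thus that of the background. At an unadjusted p of at most 0.05 were 2 of 10 members and 32.2% of all genes. The median log2 fold change was 0.01 over the members and 0.00 over all genes tested.

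Gria2, the subunit that sets calcium permeability, had normalized counts of 19830 at the lowest, 20620 in the median and 28290 at the highest in the 10 HT vehicle libraries. The HT lithium libraries ran from 16120 to 22850 with a median of 19310, and 5 of the 10 lay below every HT vehicle library, although the arms overlapped. Gria2 fell by 0.18 ± 0.07 on the log2 scale (SE), or 11.6%, with an adjusted p of 0.048 in limma. In females it was 20530, 20420, 19940, 19830 and 20420 under vehicle and 22850, 20540, 19890, 16120 and 18090 under lithium, a log2 difference of -0.06. Males had 20720, 23580, 28290, 21590 and 22280 under vehicle and 20780, 18720, 18670, 19970 and 16700 under lithium, a log2 difference of -0.29. The lithium males overlapped the vehicle males only at 20780.

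Transcript base composition moved with the Gria2 result. Gria2 has a GC content of 36.8%, and 1.3% of the tested genes are lower. Across 16588 genes, which are not independent replicates, the fold change under lithium in HT mice correlated with GC content at a Spearman rho of 0.475, and in the plot of fold change against GC content Gria2 lies on the median of genes of its composition. With the trend on GC content removed within each library, the log2 fold change of Gria2 was 0.01 with a limma adjusted p of 0.963. Without the 6 libraries that stand apart, Gria2 had a log2 fold change of -0.13 and an adjusted p of 0.21. The adjusted p was 0.0509 with edgeR, 0.0386 with DESeq2 and 0.0614 with only the compared groups in the model.

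**Figure D3:**
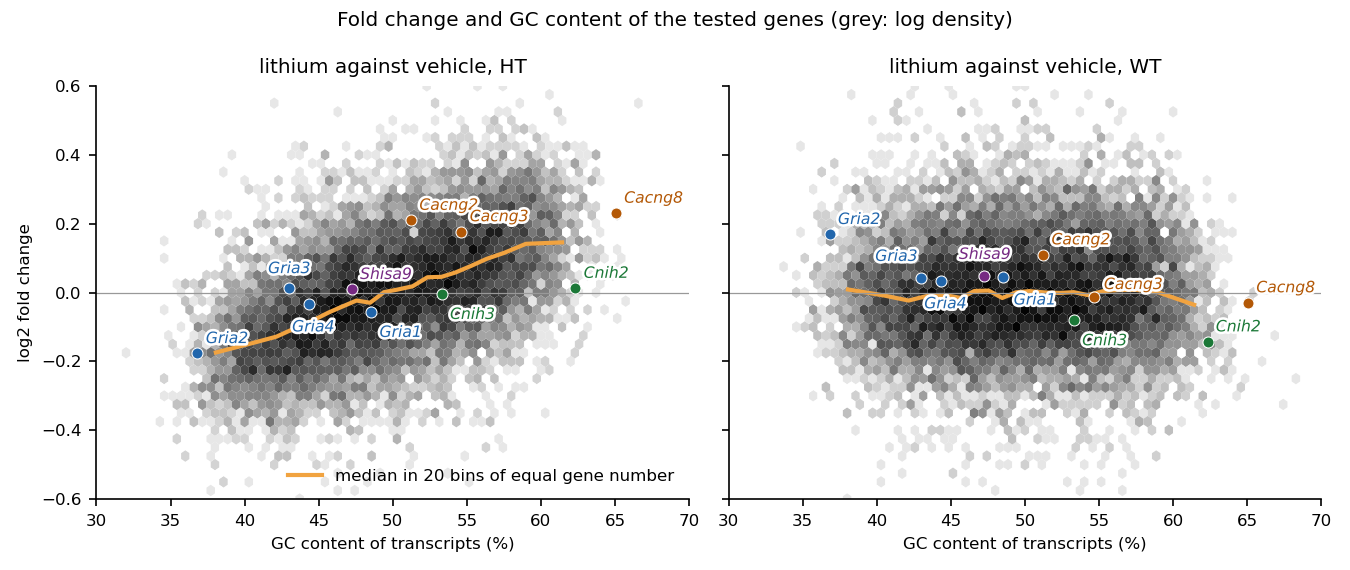
Log2 fold change under lithium against the GC content of each gene's transcripts, in HT mice (left) and WT mice (right). Grey shading is the log density of the tested genes within ±0.6, the orange line is the median in 20 bins of equal gene number, and named points are the 10 members. The median rises with GC content in HT mice (Spearman rho 0.475) and stays flat in WT mice (0.002), and Gria2 at 36.8% GC sits on the line in HT mice and above it in WT mice.

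Cacng2 rose in HT mice under lithium. It ran from 2226 to 2749 normalized counts with a median of 2477 under vehicle, and from 2316 to 3290 with a median of 2880 under lithium. In 7 of 10 lithium libraries it exceeded every vehicle library, and in 9 of 10 the vehicle median. The log2 fold change was 0.21 ± 0.07 (SE), an increase of 15.7% with a 95% interval from 4.82% to 27.6% and a limma adjusted p of 0.0278. Females had 2344, 2731, 2402, 2553 and 2353 under vehicle and 2884, 2877, 3092, 2558 and 2316 under lithium. Males had 2561, 2749, 2570, 2326 and 2226 under vehicle and 3147, 3290, 2836, 2715 and 3062 under lithium. The lowest Cacng2 values under lithium were thus those of the HT lithium females 4 and 5, which belong to the 6 libraries that stand apart.

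Without those 6 libraries the log2 fold change of Cacng2 was 0.25, with a limma adjusted p of 0.00304. This exclusion dropped HT lithium females 4 and 5 (2558 and 2316 counts) and HT vehicle male 4 (2326). It kept HT vehicle female 1 (2344 counts, bulb index 2.41) and HT vehicle male 5 (2226 counts, bulb index 2.43), just under the index limit. Whether the larger value holds under another limit was not tested. Cacng2 has a middling GC content of 51.2%, and with the GC trend removed its value was 0.19 with an adjusted p of 0.0873. With the trend on transcript length removed it was 0.19, with an adjusted p of 0.0685. Cacng2 lost its call, with adjusted p-values from 0.0505 to 0.0628, when HT lithium female 3, HT lithium male 2, HT vehicle female 1, HT vehicle male 4 or HT vehicle male 5 was left out. Both members had larger differences in males, but the interaction of sex with lithium in HT mice did not pass for either (Gria2 log2 0.23, adjusted p 0.347; Cacng2 log2 -0.13, adjusted p 0.625; limma).

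Because Cacng2 rose while Gria2 fell, their ratio stood further apart than either gene. The log2 ratio of Cacng2 to Gria2 counts was -3.13 ± 0.17 (SD) in 10 HT vehicle libraries, with values from -3.46 to -2.90. It was -2.74 ± 0.18 in 10 HT lithium libraries, from -2.99 to -2.45. The remaining arms had means between -3.10 and -2.97. This ratio was chosen after the values of both genes were seen and was not tested, and the genes differ in GC content.

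The other TARPs were also higher in HT mice under lithium without passing. Cacng3 ran from 3322 to 4774 with a median of 4398 under vehicle and from 3674 to 5424 with a median of 4895 under lithium. Its log2 fold change was 0.18 ± 0.09 with a limma adjusted p of 0.157, and 0.20 with an adjusted p of 0.0424 without the 6 libraries. For Cacng3 too, that exclusion dropped HT lithium females 4 and 5 (3809 and 3674 counts) and HT vehicle male 4 (3322). It kept HT vehicle female 1 (3462) and HT vehicle male 5 (3641). All 5 HT lithium males had 4924 or more counts of Cacng3, above all 5 HT vehicle males at 4774 or less. Cacng8, which is strongest in the hippocampus, ran from 834 to 1338 under vehicle and from 800.0 to 1704 under lithium, and its log2 fold change of 0.23 ± 0.12 had an adjusted p of 0.187. Cacng8 has a GC content of 65.1%, with 99.5% of the tested genes lower.

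The remaining members were near 0 in this comparison. The log2 fold change was -0.06 for Gria1, 0.01 for Gria3, -0.03 for Gria4, 0.01 for Cnih2, 0.00 for Cnih3 and 0.01 for Shisa9, each with an SE of at most 0.09. The 95% intervals of Cnih2 (-0.16 to 0.19) and Cnih3 (-0.17 to 0.16) show the size of change the data could not resolve. Averaging the sexes hid opposite values for several of them. Gria1 was 0.12 in females and -0.23 in males, Shisa9 0.18 and -0.16, Cnih2 -0.16 and 0.19, and Cnih3 -0.18 and 0.17.

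The interaction of sex with lithium in HT mice was log2 0.36 for Gria1 (unadjusted p 0.00201, adjusted 0.141), 0.34 for Shisa9 (0.00638, 0.177), -0.35 for Cnih2 (0.0477, 0.288) and -0.35 for Cnih3 (0.0348, 0.267) in limma. None of the 10 members passed after adjustment, where 0.012% of all genes passed, and 4 of 10 were at an unadjusted p of at most 0.05, where 17.1% of all genes were. The olfactory bulb index of the 5 HT lithium females was 0.316, 1.36, 1.56, 2.83 and 0.173, and that of the males was 0.107 to 0.280. With the level of the bulb markers as a covariate, 0 of 10 members and 0% of all genes passed this interaction in limma. The same held without the 6 libraries that stand apart, which include HT lithium females 4 and 5. The part of these markers in the difference between the sexes was not tested beyond these fits.

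In WT mice lithium moved no member past the threshold (0 of 10, where 12.8% of all genes passed in limma; at an unadjusted p of at most 0.05, 1 of 10 and 26.7%). Gria2 went the other way from HT mice: it ran from 17700 to 23010 with a median of 19490 under vehicle and from 19360 to 27390 with a median of 21730 under lithium, and 8 of 9 lithium libraries lay above the vehicle median. The log2 fold change was 0.17 ± 0.07 with a limma adjusted p of 0.0912. Across 16588 genes, which are not independent replicates, the fold change in this comparison correlated with transcript length at a Spearman rho of 0.338. The longest Gria2 transcript has 10371 bases, more than that of any other member. Adjusted p-values for this gene ranged from 0.0526 to 0.198 when 1 library was left out, and over the other alternatives from 0.0542 with the GC trend removed to 0.752 with the length trend removed. Cacng2 had 0.11 ± 0.07 (adjusted p 0.349) and Cnih2 -0.14 ± 0.09 (adjusted p 0.307). The members' median was 0.04 and that of all genes 0.00.

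The difference between the genotypes in the response of Gria2 to lithium was -0.35 ± 0.09 on the log2 scale, with an unadjusted p of 0.000586 and an adjusted p of 0.181 in limma, so it did not pass. In that test 0 of 10 members and 0.00602% of all genes passed, and at an unadjusted p of at most 0.05 were 1 of 10 members, Gria2, and 12.2% of all genes. In males alone the difference was -0.56 with an adjusted p of 0.037, and in females alone -0.13 with an adjusted p of 1. In males alone Gria1 passed too, at -0.28 with an adjusted p of 0.0466, and 3.79% of all genes passed. With the GC trend removed the Gria2 difference was -0.15, with an adjusted p of 0.842.

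**Figure D4:**
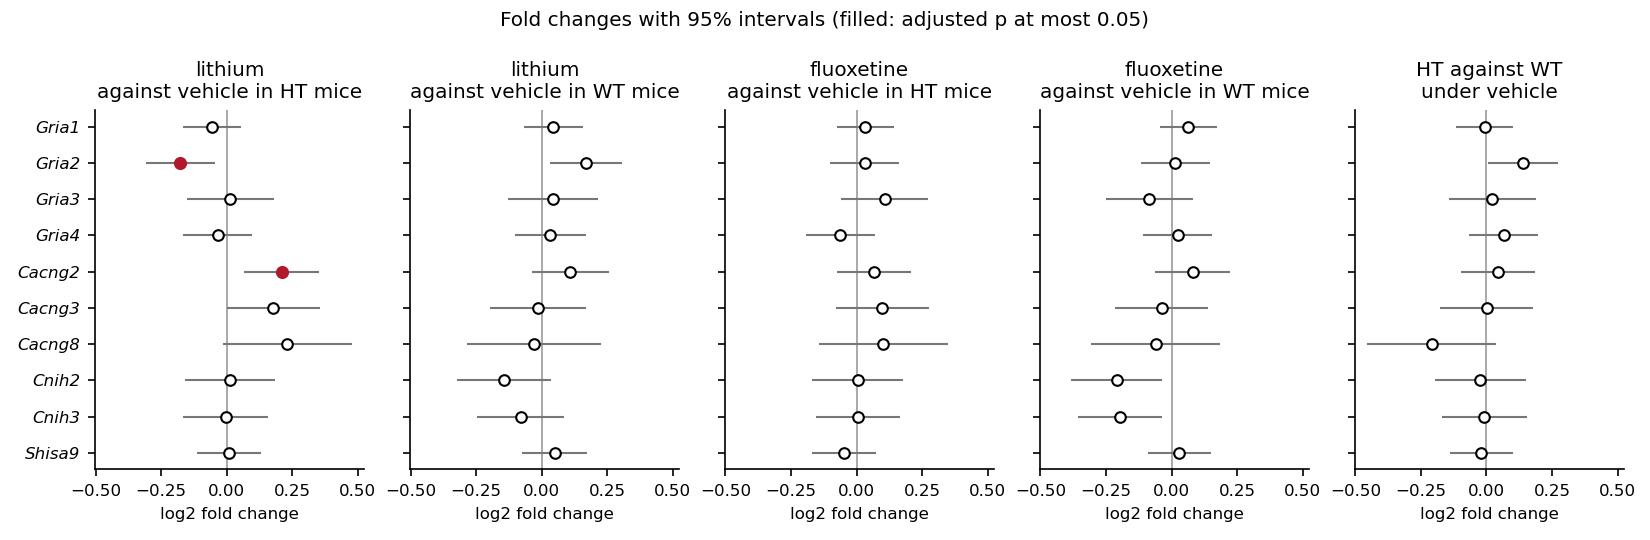
Log2 fold change of each member in 5 comparisons of arms, averaged over the sexes, with 95% intervals from limma. Filled points have an adjusted p of at most 0.05, which only Gria2 (-0.18) and Cacng2 (0.21) reach, both under lithium in HT mice. The comparisons of a drug with vehicle in 1 genotype share their vehicle libraries.

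Fluoxetine in HT mice called no member (0 of 10, where 0.277% of all genes passed in limma; at an unadjusted p of at most 0.05, 0 of 10 and 11.6%). Log2 fold changes ran from -0.06 for Gria4 to 0.11 for Gria3, and 8 of 10 were above 0. Gria3 had a median of 10470 normalized counts under fluoxetine and 10070 under vehicle, with overlapping ranges of 8502 to 11400 and 7441 to 11350.

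Fluoxetine in WT mice called no member either (0 of 10, where 5.66% of all genes passed in limma). The cornichons Cnih2 and Cnih3 were the 2 of 10 at an unadjusted p of at most 0.05, where 20.6% of all genes were. Cnih2 ran from 3933 to 5787 with a median of 4722 under vehicle and from 3226 to 5404 with a median of 4197 under fluoxetine. Its log2 fold change was -0.21 ± 0.09 (95% interval -0.38 to -0.04), with a limma adjusted p of 0.143. Cnih3 ran from 2362 to 2951 with a median of 2661 under vehicle and from 1647 to 2861 with a median of 2368 under fluoxetine, a log2 fold change of -0.20 ± 0.08 with an adjusted p of 0.14.

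Libraries rich in olfactory bulb markers held low cornichon values. WT fluoxetine females 1, 2 and 4 had 3332, 4009 and 3226 counts of Cnih2, and females 3 and 5 had 5186 and 5404. Without the 6 libraries that stand apart the log2 fold change was -0.03 for Cnih2 and -0.02 for Cnih3, with adjusted p-values of 0.851 and 0.88 in limma. With the level of the bulb markers as a covariate, which keeps all libraries, the values were -0.28 and -0.26, with adjusted p-values of 0.000453 for Cnih2 and 0.000284 for Cnih3, and 18.5% of all genes passed. The value and the call thus depended on how these libraries were handled.

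Gria3, the X-linked subunit, was also lowest in the same 3 libraries. WT fluoxetine females 1, 2 and 4 had 5578, 7209 and 5633 counts, whereas females 3 and 5 had 10550 and 10520 and the 5 males 9933 to 11540. WT vehicle libraries ran from 8669 to 10310. The arm difference for Gria3 was -0.09 ± 0.08 in log2 (adjusted p 0.612), 0.15 without the 6 libraries (adjusted p 0.126) and -0.15 with the bulb covariate (adjusted p 0.0333). The bulb index of females 1, 2 and 4 was 3.73, 2.55 and 4.18, that of females 3 and 5 was 0.135 and 0.123, and the part of the bulb tissue in the Gria3 values was not tested.

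The interaction of sex with fluoxetine in WT mice called Gria2, 1 of 10 members, where 8.66% of all genes passed. In the direction of Gria2, a lower fold change under fluoxetine in females than in males, 5.08% of all genes passed. At an unadjusted p of at most 0.05 were 2 of 10 members and 26% of all genes. Gria2 had 20190, 19850, 18040, 23010 and 19120 counts in WT vehicle females and 16180, 15830, 17680, 18920 and 18730 in WT fluoxetine females. Males had 18680, 21490, 17700, 18730 and 20280 under vehicle and 27280, 21770, 25020, 19010 and 20910 under fluoxetine. The log2 fold change was -0.20 in females and 0.23 in males, and their difference was -0.42 ± 0.13, with a limma adjusted p of 0.036. Every WT fluoxetine male exceeded every WT fluoxetine female, 19010 being the lowest male and 18920 the highest female.

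The same interaction was -0.48 ± 0.17 for Gria3, with an adjusted p of 0.0533. Without the 6 libraries, 3 of which are WT fluoxetine females, the interaction was -0.36 for Gria2 (adjusted p 0.202) and -0.01 for Gria3 (adjusted p 0.979). In that setting 0.012% of all genes passed, and 0 genes passed with the GC trend removed. With the GC trend removed Gria2 had -0.07, with an adjusted p of 0.751, and with the bulb covariate -0.42, with an adjusted p of 0.0278. With quantile scaling Gria3 passed in place of Gria2 (Gria3 -0.41, adjusted p 0.0163; Gria2 -0.29, adjusted p 0.209), and Gria2 had -0.42 and an adjusted p of 0.0783 with only the compared groups in the model. Leaving out WT fluoxetine female 1 or 2, WT fluoxetine male 1 or 3, WT vehicle female 1 or 4, or WT vehicle male 1, 3 or 4 ended the Gria2 call, with adjusted p-values from 0.0544 to 0.104.

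The knock-in allele alone moved no member: for HT against WT under vehicle 0 of 10 members and 0% of all genes passed in limma, while 1 of 10 members and 6.47% of all genes had an unadjusted p of at most 0.05. That member was Gria2, at 0.14 ± 0.07 in log2 (unadjusted p 0.0395, adjusted 0.758), and all 10 HT vehicle libraries lay above the WT vehicle median of 19490. Cacng8 had the largest difference in size, -0.21 ± 0.12 (adjusted p 0.799). The fold change of this comparison had a Spearman rho of -0.421 with GC content across 16588 genes, and Gria2 with its low and Cacng8 with its high GC content lie in the direction of that trend. With the GC trend removed they had 0.05 and -0.11, each with an adjusted p of 1. The 95% intervals of Gria1 (-0.12 to 0.10), Shisa9 (-0.14 to 0.10) and Gria4 (-0.06 to 0.20) give the range of average differences that these data allow.

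Under lithium and under fluoxetine, HT and WT mice likewise gave 0 of 10 members, with 0% of all genes passing in each. Unadjusted p-values of at most 0.05 were found for Gria2 (-0.21, adjusted p 0.266) and Cacng3 (0.19, adjusted p 0.43) under lithium, 2 of 10 where 11.1% of all genes had such a p. Under fluoxetine they were found for Gria2 (0.16), Gria3 (0.21), Cnih2 (0.19) and Cnih3 (0.19), with adjusted p-values from 0.344 to 0.405 in limma. These are 4 of 10 members where 11.3% of all genes had such a p. They are not 4 separate counts, since Gria3, Cnih2 and Cnih3 moved together across libraries (Pearson r 0.776, 0.792 and 0.86 in their pairs). Against WT vehicle, the WT fluoxetine arm was lower for Gria3 (-0.09), Cnih2 (-0.21) and Cnih3 (-0.20), none of which passed, and not for Gria2 (0.01). That arm holds 3 of the libraries standing apart. Genotype by fluoxetine called 0 of 10 members and 0% of all genes, and at an unadjusted p of at most 0.05 were 0 of 10 members and 5.08% of all genes.

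Females and males averaged over the 6 arms differed in no member after adjustment (0 of 10, where 0.217% of all genes passed in limma; at an unadjusted p of at most 0.05, 2 of 10 and 10.3%). Gria2 was lower in females by a log2 fold change of -0.11 ± 0.04 (adjusted p 0.255) and Cacng3 by -0.12 ± 0.05 (adjusted p 0.393) in limma. For Gria3 the value was -0.09 ± 0.05 (adjusted p 0.528), so its X-linked position went with no higher level in females. The interactions of sex with lithium in WT mice (0% of all genes), with fluoxetine in HT mice (0%) and with genotype under vehicle (0.00602%) called 0 of 10 members each in limma. In each of the 3, 0 of 10 members were at an unadjusted p of at most 0.05, where 8.84%, 5.31% and 10% of all genes were.

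Beyond the arms, the members moved in ordered ways from library to library. After each group mean was subtracted, Pearson r between members over the 59 libraries ran from -0.834 to 0.872 in 45 pairs with a median of 0.076, and 33 pairs had a Benjamini-Hochberg adjusted permutation p of at most 0.05. One set held Gria3, Cacng2, Cacng3, Cnih2 and Cnih3, whose 10 pairs were all positive. The TARPs Cacng2 and Cacng3 had r 0.872 and Spearman rho 0.83, Gria3 and Cacng3 had r 0.853 and rho 0.749, and Cnih2 and Cnih3 had r 0.86 and rho 0.863. For each r the permutation p was 1.0e-05, the smallest that 100000 permutations can give, adjusted to 2.2e-05. Without the 2 libraries farthest from the median these were 0.829, 0.825 and 0.846. Values were permuted freely over the 59 libraries, although a mean had been subtracted in each of 12 groups and spreads differed between groups. The permutation p-values here and below may therefore be too small, which matters most for weak relations near the threshold.

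Gria1 and Shisa9 moved against that set. Gria1 had r -0.834 and rho -0.857 with Cacng3 (-0.812 without the 2 farthest libraries) and r -0.635 and rho -0.54 with Gria3 (-0.586). Shisa9 had r -0.763 and rho -0.731 with Cnih2 (-0.745), and each of these r values had an adjusted permutation p of 2.2e-05. Gria4 was positive with Shisa9 (r 0.68, rho 0.625) and negative with Cnih3 (r -0.652, rho -0.609), again with adjusted permutation p-values of 2.2e-05 (0.628 and -0.631 without the 2 libraries). Gria2 had only weaker relations. The r values that passed were -0.319 with Cacng8 (rho -0.375, adjusted permutation p 0.0204; -0.344 without the 2 libraries), 0.31 with Gria3 (rho 0.367, 0.024; 0.269) and 0.308 with Gria4 (rho 0.38, 0.0243; 0.266). Gria2 and Gria1, the pair that forms most cortical AMPA receptors in pyramidal neurons, had r -0.058 and rho -0.062 (adjusted permutation p 0.694; -0.026).

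**Figure D5:**
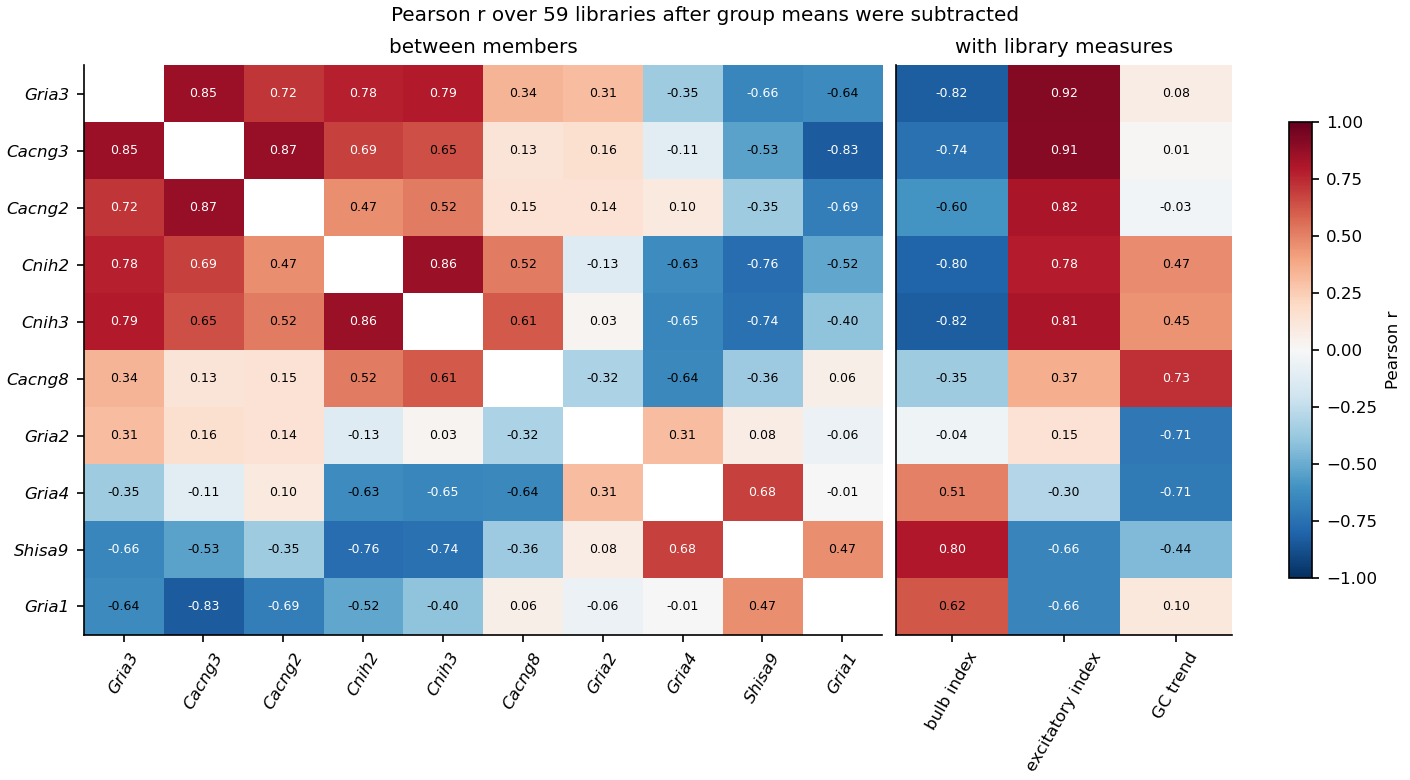
Pearson r between the 10 members (left) and of each member with 3 library measures (right), over 59 libraries after each group mean was subtracted. Red is positive and blue negative. Gria3, Cacng3, Cacng2, Cnih2 and Cnih3 form a positive block that runs against Shisa9 and Gria1 and is positive with the excitatory neuron index, while the strongest r with the GC trend are those of Cacng8 (0.733), Gria2 (-0.715) and Gria4 (-0.707).

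A like order appeared against markers of excitatory neurons and of the olfactory bulb. An index of 8 cortical excitatory neuron markers had r 0.918 and rho 0.872 with Gria3, r 0.907 and rho 0.852 with Cacng3 and r 0.818 and rho 0.761 with Cacng2. Against the log2 olfactory bulb index, Gria3 had r -0.824 and rho -0.824, Cnih3 r -0.824 and rho -0.83, Cnih2 r -0.797 and rho -0.779, and Shisa9 r 0.803 and rho 0.797. The adjusted permutation p was 2.4e-05 for each of these in a family of 40 relations, and without the 2 farthest libraries r was 0.891, 0.877 and 0.755 for the first index and -0.79, -0.793, -0.763 and 0.796 for the second. Gria2 had r 0.146 and rho 0.161 with the excitatory index (adjusted permutation p 0.349; 0.181 without the 2 libraries) and -0.045 and -0.044 with the bulb index (0.811; -0.011). An index of myelinating oligodendrocyte markers gave another order: r was 0.494 with Gria1, 0.415 with Cacng8, -0.497 with Gria4, -0.421 with Cacng3 and -0.417 with Cacng2 (rho 0.471, 0.413, -0.466, -0.462 and -0.404; adjusted permutation p 0.00017 to 0.00185; 0.415, 0.351, -0.376, -0.396 and -0.376 without the 2 libraries). With Gria3 it was -0.097, with Cnih2 0.026 and with Shisa9 -0.014 (rho -0.123, 0.057 and -0.009; adjusted permutation p 0.561, 0.893 and 0.941). No member was in a marker list.

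Gria2 was among the members that moved with the GC trend of a library. The GC trend of a library, the Spearman rho over genes between GC content and the deviation of each gene from its mean, had r -0.715 and rho -0.757 with Gria2, r -0.707 and rho -0.711 with Gria4, and r 0.733 and rho 0.734 with Cacng8. Each had an adjusted permutation p of 2.4e-05, and without the 2 farthest libraries r was -0.72, -0.685 and 0.696. Gria2 and Gria4 have the GC contents 36.8% and 44.3%, below the median of 49.9% of tested genes, and Cacng8 has 65.1%. Weaker relations with the GC trend that also passed were r 0.47 for Cnih2, 0.448 for Cnih3 and -0.438 for Shisa9 (rho 0.491, 0.437 and -0.429; adjusted permutation p 0.00038, 0.00067 and 0.00108; 0.445, 0.393 and -0.413 without the 2 libraries). Gria3 with 43.0% had r 0.076 and rho -0.013 with the GC trend (adjusted permutation p 0.672; 0.08 without the 2 libraries). The measure is built from how genes of low and high GC content deviate in a library. The signs of r for Gria2 and Cacng8 are therefore partly set by it, and their permutation p-values are no separate evidence on these genes. Other genes of like GC content were not compared, and the source of the GC trend was not tested.

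The cornichon pair Cnih2 and Cnih3 was the most closely correlated outside the TARPs, so the 250 bases before their transcription starts are shown, read along the gene from RefSeq promoters on GRCm38.p6. The windows are chr19:5098522-5098771 on the minus strand for Cnih2 and chr1:181352378-181352627 on the plus strand for Cnih3. Matches to the GC box GGGCGG on either strand are in capitals.
Cnih2: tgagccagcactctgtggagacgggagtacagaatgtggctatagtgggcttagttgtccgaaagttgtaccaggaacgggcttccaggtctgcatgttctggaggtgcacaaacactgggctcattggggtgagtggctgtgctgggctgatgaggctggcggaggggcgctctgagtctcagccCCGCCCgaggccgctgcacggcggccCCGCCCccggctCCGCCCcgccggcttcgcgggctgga
Cnih3: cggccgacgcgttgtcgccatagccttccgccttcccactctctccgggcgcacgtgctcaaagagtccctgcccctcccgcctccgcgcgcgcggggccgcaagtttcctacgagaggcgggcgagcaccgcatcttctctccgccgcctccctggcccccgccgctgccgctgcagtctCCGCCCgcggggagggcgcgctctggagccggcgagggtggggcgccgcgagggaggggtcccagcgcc

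Promoters were found for 7 of the 10 members. The GC box occurs 3 times in the Cnih2 window and 1 time in that of Cnih3, in none of the other 5 members' windows, and in 32.7% of 32851 promoters of the same length. An E box, CACGTG, on either strand (it reads alike on both) occurs 1 time in the Cnih3 window and in 6.02% of promoters. The windows hold 65.6% GC in Cnih2 and 76.0% in Cnih3, above 83.8% and 96.7% of promoters. The matches describe these windows and were not tied to the correlation.

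For each pore subunit, the 3 genes with the highest Pearson r of log2 values over the 59 libraries after group means were subtracted are given, among 12487 genes with a mean of at least 100 counts. They were Dnmt1 (0.888), Sez6 (0.865) and Ano4 (0.854) for Gria1, and Kcnab1 (0.949), Fam135b (0.948) and Atp8a1 (0.946) for Gria3. For Gria2 they were 1700020I14Rik (0.811), Bicd1 (0.786) and Vcpip1 (0.776), and for Gria4 Hdac9 (0.861), Slc25a36 (0.839) and Pds5a (0.838). The libraries share the composition differences described above, so these values are a description of likeness across these libraries.

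Other genes that serve AMPA receptors were described in 5 lists of 51 genes in all. Under lithium in HT mice 13 were higher, 3 lower and 35 did not pass. Of all tested genes 10.9% were higher and 9.43% lower, 20.3% in either direction. The median log2 fold change was 0.08 in the lists against 0.00 over all tested genes. Fold changes in this comparison rose with GC content (Spearman rho 0.475), and the list genes were not refitted with the GC trend removed. Trafficking and anchoring had 7 of 19 higher and 1 lower. They included Akap5, the postsynaptic anchor of kinase A and calcineurin (0.30 ± 0.09, adjusted p 0.015), Dlg4, the PSD scaffold that TARPs bind (0.24 ± 0.08, 0.0179), Epb41l1, which binds Gria1 protein (0.23 ± 0.05, 0.00149), and Vps35, the retromer subunit (-0.23 ± 0.06, 0.00303), all in limma. Of the extracellular clustering proteins, the neuronal pentraxins Nptxr (0.39 ± 0.11, 0.00955) and Nptx2 (0.26 ± 0.09, 0.0412) rose and the synaptic adhesion protein Lrrtm4 fell by 0.20 ± 0.06 (0.0208), 3 of 10.

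Among other auxiliary proteins 2 of 13 passed: Prrt1 rose (0.25 ± 0.08, 0.0187) and Cnih1, the broadly expressed cornichon, fell by 0.16 ± 0.05 (0.0139). Of 6 genes for assembly in the endoplasmic reticulum, Abhd6 (0.21 ± 0.06, 0.0118) and Cpt1c (0.16 ± 0.06, 0.0458) rose. Of 3 editing enzyme genes, Adar rose (0.14 ± 0.04, 0.00902), and Adarb1, which edits the Gria2 codon shown above, did not pass (0.11 ± 0.05, 0.105). In WT mice lithium raised 3 of the 51 genes (Shisa7 0.25, Myo5a 0.25 and Adar 0.15) and lowered 0, where 12.8% of all genes passed. Fluoxetine in WT mice raised Nptx2 (0.57 ± 0.09, 0.000257), Shisa7 (0.27 ± 0.07, 0.00883) and Adar (0.14 ± 0.04, 0.0314) and lowered Lrrtm4 (-0.26 ± 0.06, 0.0121), 4 of 51 where 5.66% of all genes passed. The WT fluoxetine arm holds 3 of the 6 libraries that stand apart. In no comparison were the list genes examined without those 6 libraries or with the bulb covariate. Fluoxetine in HT mice and the allele under vehicle changed 0 of 51.

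Markers of other cell types passed in the same comparisons. Under lithium in HT mice 10.9% of all genes were higher and 9.43% lower. Of the markers, 3 of 5 microglial, 2 of 6 astrocyte, 2 of 4 oligodendrocyte precursor, 1 of 4 endothelial, 1 of 7 inhibitory neuron and 1 of 8 excitatory neuron markers were higher, and none was lower. The excitatory neuron list, whose index had r 0.818 with Cacng2 and 0.907 with Cacng3 across libraries, had a median log2 fold change of 0.12. The myelinating oligodendrocyte list, whose index had r -0.417 with Cacng2 and -0.421 with Cacng3, called 0 of 6 with a median of -0.31. Its index had a median of 0.767 in HT lithium (0.383 to 1.51) against 1.1 in HT vehicle libraries (0.583 to 1.27). The olfactory bulb list called 0 of 8 with a median log2 fold change of -0.95, and the bulb index had a median of 0.237 in HT lithium (0.107 to 2.83) against 0.705 in HT vehicle libraries (0.13 to 3). Under lithium in WT mice 2 of 4 endothelial and 1 of 5 microglial markers were lower, where 12.8% of all genes passed in either direction. Myelinating oligodendrocyte markers were lower in 3 of 6 under fluoxetine in WT mice, where 5.66% of all genes passed in either direction. The choroid plexus marker Ttr had a median of 4.09 counts and reached 50310 in HT vehicle female 1. The part of these cell types in the Cacng2 and Gria2 differences was not tested beyond the bulb covariate, under which Cacng2 had 0.15 (adjusted p 0.0496) and Gria2 -0.18 (adjusted p 0.0362) in limma.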

How the data were processed

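Polyadenylated RNA was sequenced with a stranded kit, per the labels' protocols. The submitters' processing notes name Salmon 0.11.2, R 3.6.0, DESeq2 1.19.11 and GRCm38, without their roles. The deposited signal is a normalized count per gene, made by the authors as reads divided by a size factor of the library (judged from the values, which gave whole reads within 0.001 for 100.0% of values). Size factors recovered from the values were 0.783 to 1.245. Each of the 116 pairs of libraries within a group differed by more than sampling noise.

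Values were analysed as log2(normalized count + 1), on which scale every fold change is given, with limma 3.58.1 (R 4.3.3), fitting a mean for each of 12 groups of genotype, drug and sex (47 residual degrees of freedom) to the 16599 genes with a mean of at least 10. The sexes were weighted equally in arm comparisons, p-values were adjusted by Benjamini-Hochberg over all tested genes within each of 15 comparisons, and the threshold was 0.05. edgeR 4.0.16 (quasi-likelihood) and DESeq2 1.42.0 on the recovered reads were alternatives, as were other pseudocounts, scalings, covariates and sets of libraries. The 6 libraries were set apart by a bulb index above 2.5 or mitochondrial reads below 5%. GC content and lengths came from GENCODE transcripts of GRCm38, and 18077 identifiers matched. The fitting was tested on simulated data. Correlations used 100000 two-sided permutations (Python 3.11.15, scipy 1.17.1), and 1.0e-05 is the smallest p they can give. The genes named from the 5 lists were up to 4 per list with the largest change among those passing. Adarb1, which did not pass, was added for its role after its value was seen. The members, lists and rules were chosen with earlier results of these data known.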

Additional observations from a re-analysis of the deposited data

Results flagged for a closer look

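Within groups of 4 or 5 pups, 4 of 120 sets of member values held a library far from the rest by Dixon's criterion, where chance gives about 6. All 4 were low values of genes that fell with the olfactory bulb index in the library comparisons. Gria3 was 8502 normalized counts in HT fluoxetine male 5 against 10160 to 10730 in the other 4 males. It was 7441 in HT vehicle female 1 against 9799 to 10390, and 8361 in WT lithium female 1 against 10300 to 10340. Cnih3 was 2087 in HT fluoxetine male 5 against 2539 to 2702. The bulb index of these libraries was 2.44, 2.41 and 2.41, each just under the limit of 2.5 that set other libraries apart, and its part in the low values was not tested.

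The response of Gria2 to fluoxetine in WT mice differed between the sexes by -0.4235 on the log2 scale in the test of the difference itself (limma adjusted p 0.036, 0.0171 to 0.751 over the alternatives other than leaving out 1 library). Gria2 was lower under fluoxetine in females and higher in males, and of the 5 WT fluoxetine females 3 are among the libraries that stand apart.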

How the results depend on the processing

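Of 1970 single-gene values under other settings, 1783 kept direction and side of the threshold, 160 changed sign without being called, 13 lost a call and 13 gained one. Gria2 under lithium in HT mice turned from -0.177 to 0.0062 with the GC trend removed. Under lithium in HT mice, where 2 members passed, the count was 0 with the GC trend removed (1934 genes passed in all) and in females only (7.02% of all genes). It was 1 without a filter (3285 genes), with edgeR (3448 genes), with the replicate block (20.4%), with only the groups compared (17.4%) and with the length trend removed (3205 genes). In males only it was 4 (Gria1, Gria2, Cacng2 and Cacng3), where 16.2% of all genes passed. With the olfactory bulb marker level as a covariate, 1 member passed under lithium in WT mice (Cnih2, -0.17; 20.2% of all genes passed), 3 under fluoxetine in WT mice (Gria3, Cnih2 and Cnih3; 18.5%) and 2 for sex by fluoxetine in WT mice (Gria2 and Gria3; 11.7%). Under fluoxetine in WT mice, 1 passed with quantile scaling (Cnih2, -0.23, where 6.44% of all genes passed) and 1 without the libraries that stand apart (Cacng2, 0.24, where 10% passed). For sex by fluoxetine in WT mice, 8.66% of all genes passed in the main fit. There 0 members passed without the libraries that stand apart (0.012% of all genes), with only the groups compared (2.62%) and with the GC trend removed (0 genes). For genotype by lithium, 2 passed in males only, where 3.79% of all genes passed. Where not said otherwise, the cause was not tested; fewer libraries entered when they stood apart or when 1 sex was used.

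Leaving out 1 library at a time gave 0 to 2 members under lithium in HT mice, where 2782 to 3578 of all genes passed. It gave 0 to 1 under fluoxetine in WT mice (Cnih2, -0.26, without WT fluoxetine female 5), where 477 to 1311 genes passed. For sex by fluoxetine in WT mice it gave 0 to 2, where 557 to 2849 genes passed. Gria2 under lithium in HT mice kept its call in 29 of 59 (log2 -0.21 to -0.14, adjusted p 0.0223 to 0.128). It lost it without any of 14 libraries of the compared arms (HT lithium females 3, 4 and 5 and males 2, 3 and 5, HT vehicle females 1 to 5 and males 2, 3 and 5) or 16 of other arms. Cacng2 kept its call in 54 of 59 (0.19 to 0.24). edgeR and DESeq2 called 0 members wherever limma called 0.

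With the replicate block Gria2 had the same -0.177 and an adjusted p of 0.0532. Replicate numbers do not pair the libraries: same-numbered libraries of different groups had a median correlation of -0.009 (-0.49 to 0.574), and 8 of 59 libraries were closest to their own number. Quantile scaling moved the median of all genes by less than 0.1 on the log2 scale. With 9 or 10 pups an arm, SEs of 0.05 to 0.13 on the log2 scale limit what could be detected.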
